A study of Mus musculus with 12 samples.

Results

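The genes described here are 9 that take glucose into the cell and carry it down to lactate: the glucose transporters SLC2A1 and SLC2A2, the hexokinases HK1 and HK2, the aldolase ALDOA, the phosphoglycerate kinase PGK1, the pyruvate kinases PKM and PKLR, and the lactate dehydrogenase LDHA. They were chosen by symbol, as forms that differ between liver and tumor together with shared steps of the pathway. The gene table holds 36292 symbols, of which 15836 passed the filter on low counts, and all 9 genes were among those tested. The samples were tumors grown under the skin of the flank in BALB/c nu/nu female mice, about 8 weeks old at injection, from Hep3B, an established human hepatocellular carcinoma line. Mice were randomized at a mean tumor volume near 500 mm3 and received by gavage, once a day, vehicle, the FGFR4 inhibitor H3B-6527 at 300 mg/kg, the multikinase inhibitor lenvatinib at 10 mg/kg, or both drugs at those doses (the combination). Tumors from 3 mice in each of the 4 groups were taken 8 hours after dose 4, and RNA came from fragments of 50 to 100 mg. All groups share 1 cell line and an athymic host, so the tumors differ as mice and grafts but not as donors.

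Glycolysis turns glucose into pyruvate, and lactate dehydrogenase can pass that pyruvate on to lactate. Several steps have more than one isoenzyme: adult hepatocytes rely on the low-affinity transporter SLC2A2 (GLUT2) and on the liver pyruvate kinase PKLR. Many liver tumors instead carry SLC2A1 (GLUT1), the high-affinity hexokinase HK2, ALDOA and PKM. FGFR4, the receptor that H3B-6527 inhibits, receives FGF19 in hepatocytes, and lenvatinib acts on VEGF and FGF receptors among other kinases.

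Library totals ran from 23.8 to 40.9 M estimated counts (M stands for mega). Levels are given in CPM, which are counts per M of a library total scaled by the TMM factor, and they are compared between tumors and not between genes, because the table holds no gene lengths. The table sums transcripts to symbols, so PKM1 and PKM2, and the liver and red cell forms of PKLR, are each 1 value. The H3B-6527 tumors varied more than the rest (biological coefficient of variation 21.5%, against 8.19% in vehicle, 10.7% in lenvatinib and 11.2% in the combination), and H3B-6527 replicate 3 lay nearest to the vehicle tumors among that group on the first principal component. DUSP6, a phosphatase induced by MAP kinase signaling that reports on FGFR4 inhibition, stood at 71.1 to 92.9 CPM in vehicle tumors and at 2.70, 5.07 and 7.62 CPM in H3B-6527 replicates 1, 2 and 3. Hepatocyte markers, ALB and AFP among them, were present in all 12 libraries, with summed levels of 69951 to 155220 CPM.

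H3B-6527 alone was the comparison in which most of the 9 genes differed from vehicle. With edgeR's quasi-likelihood test and an adjusted p under 0.05, 3 genes rose (SLC2A2, HK1 and PKLR), 5 fell (SLC2A1, HK2, ALDOA, PGK1 and PKM), and LDHA did not pass. Over all genes tested, 25.2% rose and 24.3% fell in this comparison. The median log2 difference of the 9 was -0.38, and that of all genes tested was 0.01. In the combination 2 genes rose (SLC2A2 and PKLR), 3 fell (SLC2A1, HK2 and PGK1) and 4 did not pass, where 24.8% of all genes rose and 25.3% fell, and the median of the 9 was -0.24. The combination and H3B-6527 comparisons share their vehicle tumors, so one is no replicate of the other. Scaling by library totals in place of TMM shifted the median of all genes under H3B-6527 from 0.01 to -0.11 and moved the split of calls from 3987 higher and 3842 lower to 3022 and 4960. That scaling moved the split in the combination from 3924 higher and 4006 lower to 2923 and 5339. Every tumor is a bulk sample, so fewer cells of a type and less RNA per cell cannot be told apart in any of these values.

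**Figure D1:**
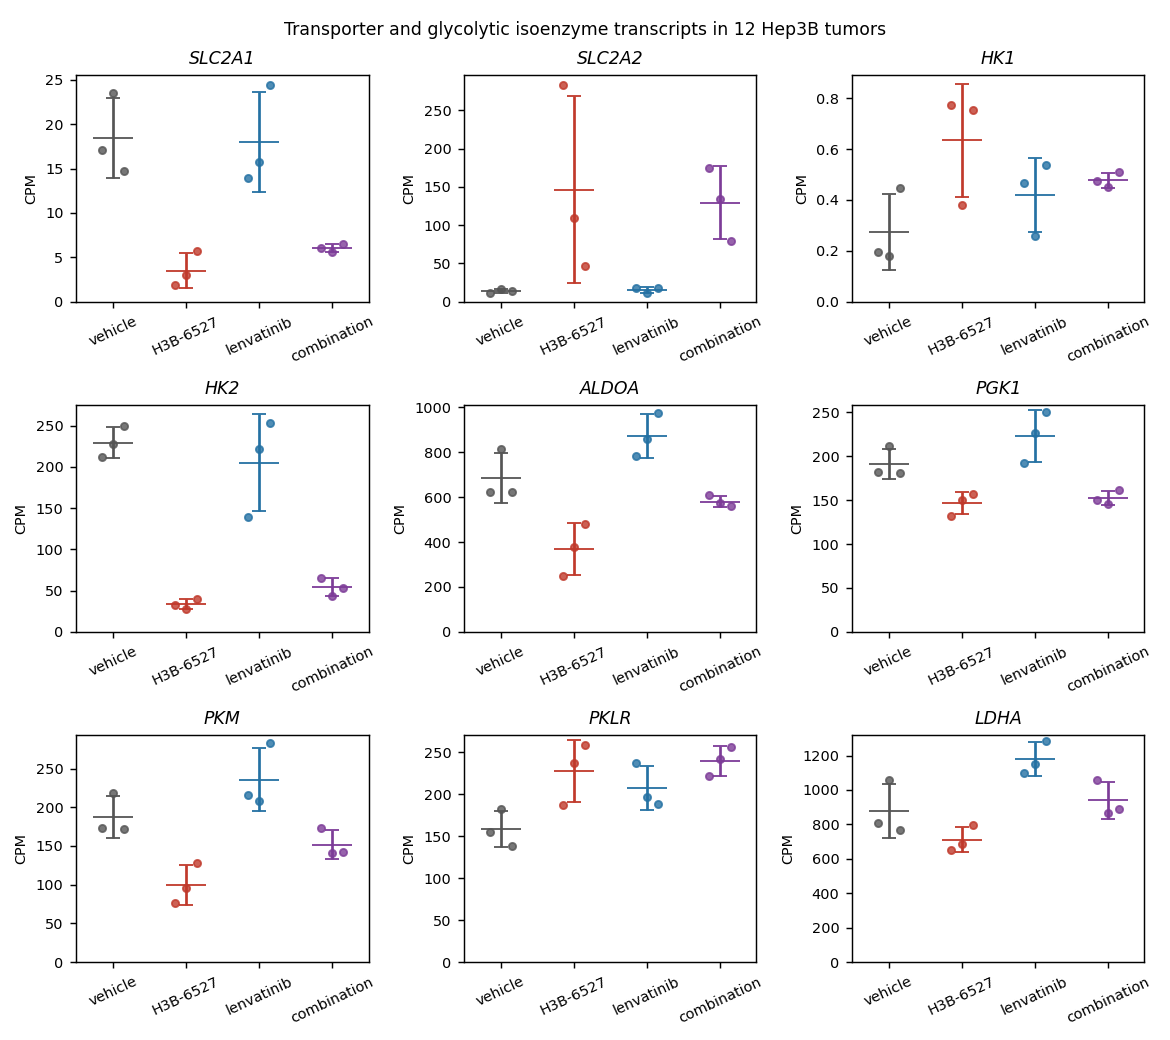
Level of each of the 9 genes in CPM (vertical axis of each panel) in vehicle, H3B-6527, lenvatinib and combination tumors; points are single tumors, bars are the mean and SD of 3. SLC2A1 and HK2 are lower, and SLC2A2 higher, in every H3B-6527 and combination tumor than in every vehicle tumor, while the lenvatinib tumors overlap the vehicle tumors for these 3 genes.

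The transporters moved in opposite directions under H3B-6527. SLC2A1, the transporter of red cells and many tumors, stood at 17.1, 23.5 and 14.8 CPM in the vehicle tumors and at 1.83, 2.95 and 5.74 CPM in the H3B-6527 tumors. All 3 treated tumors lay below all 3 vehicle tumors, and the log2 difference was -2.45 ± 0.35 (SE, n = 3 per group, edgeR adjusted p = 1.57e-04), or 5.46-fold lower. In the lenvatinib tumors SLC2A1 stood at 13.9, 15.7 and 24.5 CPM, within and around the vehicle values, with a log2 difference of -0.03 ± 0.31 (95% interval -0.71 to 0.65, edgeR adjusted p = 0.984). The combination tumors were close to one another at 6.04, 5.63 and 6.55 CPM, all below vehicle (log2 difference -1.60 ± 0.33, edgeR adjusted p = 0.00180) and below lenvatinib (-1.57 ± 0.33, edgeR adjusted p = 0.00320). They overlapped the H3B-6527 tumors, from which they differed by 0.85 ± 0.36 on the log2 scale (edgeR adjusted p = 0.483).

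SLC2A2, the main transporter of hepatocytes, which moves glucose in both directions across their membrane, stood at 10.8, 16.5 and 13.9 CPM in vehicle tumors. In H3B-6527 tumors it reached 283, 109 and 47.0 CPM, with replicate 1 highest and replicate 3 lowest. Every treated tumor was above every vehicle tumor (log2 difference 3.41 ± 0.58, edgeR adjusted p = 7.76e-04, 10.7-fold). The size rested on replicate 1: without it the log2 difference was 2.51, and without replicate 3 it was 3.83. Combination tumors gave 174, 134 and 79.4 CPM, again all above vehicle (3.23 ± 0.58, edgeR adjusted p = 0.00102) and above lenvatinib (3.02 ± 0.57, edgeR adjusted p = 0.00233). Between the combination and H3B-6527 alone the log2 difference of SLC2A2 was -0.18 ± 0.52 (edgeR adjusted p = 0.940). Lenvatinib tumors, at 18.3, 11.4 and 17.97 CPM, overlapped vehicle (0.21 ± 0.55, edgeR adjusted p = 0.937).

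Hexokinases trap glucose in the cell by phosphorylating it. HK2, the inducible form typical of muscle and many tumors, stood at 212, 228 and 249 CPM in vehicle tumors and at 32.2, 28.0 and 40.1 CPM in H3B-6527 tumors. The 2 groups lay far apart, and HK2 fell by 2.78 ± 0.22 on the log2 scale (edgeR adjusted p = 3.16e-06), or 6.88-fold, the smallest p of the 9 genes in this comparison. The combination tumors stood at 65.6, 43.8 and 53.7 CPM, below every vehicle tumor (log2 difference -2.08 ± 0.22, edgeR adjusted p = 1.74e-05). They lay above every H3B-6527 tumor, but that difference of 0.71 ± 0.21 did not pass over all genes (edgeR adjusted p = 0.376). Lenvatinib alone gave 139.7, 221 and 254 CPM, with replicate 1 below all vehicle tumors and the others among or above them (-0.16 ± 0.21, edgeR adjusted p = 0.846).

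HK1, the form present in most tissues, was close to the detection limit, with 7, 7 and 17 counts in the vehicle tumors and 30, 14 and 18 in the H3B-6527 tumors. In CPM these were 0.195, 0.178 and 0.446 against 0.771, 0.379 and 0.754, and the groups overlapped. The log2 difference of 1.19 ± 0.43 passed (edgeR adjusted p = 0.0351) but was lost in 6 of 12 alternatives: with library totals as the scale (adjusted p = 0.0580), when fitting only the 2 groups compared (0.0762), without replicate 1 (0.119) or 2 (0.123) of the vehicle group, and without replicate 1 (0.122) or 3 (0.0810) of the H3B-6527 group. In lenvatinib and combination tumors HK1 had a mean of 0.420 ± 0.146 and 0.477 ± 0.0295 CPM (SD, n = 3), against 0.273 ± 0.150 in vehicle, and neither difference passed. Leaving out vehicle replicate 3 took the combination difference from 0.80 (edgeR adjusted p = 0.151) to 1.34 (0.0408). HKDC1, a further hexokinase, did not pass under H3B-6527 (log2 difference 0.05 ± 0.13, edgeR adjusted p = 0.782).

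Aldolase splits fructose bisphosphate into triose phosphates, and ALDOA is its muscle and tumor form. ALDOA stood at 622, 814 and 623 CPM in vehicle tumors and at 248, 377 and 479.6 CPM in H3B-6527 tumors. No treated tumor reached the vehicle range, and replicate 1 was the lowest (log2 difference -0.90 ± 0.19, edgeR adjusted p = 0.00223, 1.86-fold lower). Combination tumors, at 608, 573 and 561 CPM, lay just under the lowest vehicle tumor, and their difference of -0.24 ± 0.19 did not pass (edgeR adjusted p = 0.321). They were above every H3B-6527 tumor by 0.66 ± 0.19 (edgeR adjusted p = 0.361). Lenvatinib tumors stood at 784, 859 and 976 CPM, which overlaps vehicle (0.35 ± 0.19, edgeR adjusted p = 0.565). Against lenvatinib, ALDOA was lower in the combination by a log2 difference of -0.59 ± 0.19 (edgeR adjusted p = 0.0289). That call was lost in 6 of 12 alternatives: with no low-count filter (adjusted p = 0.0657), without lenvatinib replicate 2 (0.0664) or 3 (0.0990), and without combination replicate 1 (0.0622), 2 (0.0794) or 3 (0.0733).

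PGK1, which makes ATP from bisphosphoglycerate and has no liver form, differed least among the genes that fell. Its values were 182, 211 and 181 CPM in vehicle, 132, 150.3 and 157 CPM under H3B-6527, and 150.5, 146 and 161 CPM in the combination. Both treated groups lay wholly below vehicle, by -0.38 ± 0.11 under H3B-6527 (edgeR adjusted p = 0.00997) and by -0.33 ± 0.11 in the combination (edgeR adjusted p = 0.0223). The combination call was lost without vehicle replicate 2 (edgeR adjusted p = 0.0987), combination replicate 1 (0.0633) or combination replicate 2 (0.0804). In lenvatinib tumors PGK1 stood at 192, 226 and 251 CPM (0.22 ± 0.11, edgeR adjusted p = 0.489), and the combination was lower than lenvatinib by -0.55 ± 0.11 (edgeR adjusted p = 0.00171).

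Pyruvate kinase makes the last ATP of the pathway. PKM, the gene of its muscle and tumor forms, stood at 173, 219 and 172 CPM in vehicle tumors and at 76.1, 96.1 and 128 CPM under H3B-6527. The groups did not overlap, and PKM fell by 0.91 ± 0.18 on the log2 scale (edgeR adjusted p = 0.00142, 1.88-fold). Combination tumors gave 173, 140.4 and 142 CPM, overlapping vehicle (-0.31 ± 0.18, edgeR adjusted p = 0.178, and 0.0476 when fitting only the 2 groups compared). They lay above every H3B-6527 tumor by 0.60 ± 0.18 (edgeR adjusted p = 0.369). With 216, 209 and 283 CPM, the lenvatinib tumors also overlapped vehicle (0.33 ± 0.18, edgeR adjusted p = 0.561). PKM was lower in the combination than in lenvatinib by -0.64 ± 0.18 (edgeR adjusted p = 0.0151), a call lost without lenvatinib replicate 3 (0.0683) or combination replicate 2 (0.0593).

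PKLR, the pyruvate kinase gene of liver and red cells, went the other way by a smaller amount. It stood at 155, 182 and 139 CPM in vehicle, 187, 237 and 259 CPM under H3B-6527 and 221, 242 and 257 CPM in the combination. All 6 tumors given H3B-6527 lay above all vehicle tumors, by 0.52 ± 0.13 under H3B-6527 alone (edgeR adjusted p = 0.00617) and by 0.60 ± 0.13 in the combination (edgeR adjusted p = 0.00259). Lenvatinib tumors, at 237, 197 and 189 CPM, were above vehicle as well, and their difference of 0.39 ± 0.13 (95% interval 0.10 to 0.68) did not pass over all genes (edgeR adjusted p = 0.306). PKLR did not separate the combination from lenvatinib (0.21 ± 0.13, edgeR adjusted p = 0.234), nor lenvatinib from H3B-6527 (-0.13 ± 0.13, edgeR adjusted p = 0.448).

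LDHA, the lactate dehydrogenase subunit of muscle and tumors, was not called under any treatment against vehicle. Its values were 810.3, 1060.1 and 770.1 CPM in vehicle, 654, 687 and 796 CPM under H3B-6527, 1097, 1153 and 1287 CPM under lenvatinib, and 1060.1, 867 and 889.5 CPM in the combination. The H3B-6527 tumors overlapped vehicle (log2 difference -0.31 ± 0.14, edgeR adjusted p = 0.0760), and this difference passed with DESeq2 (0.0474), with library totals (0.0279) and without H3B-6527 replicate 3 (0.0320). The lenvatinib tumors were all above the vehicle tumors (0.42 ± 0.14, 95% interval 0.13 to 0.71, edgeR adjusted p = 0.269). Lenvatinib and H3B-6527 alone differed from each other: LDHA was higher in every lenvatinib tumor, by 0.73 ± 0.14 (edgeR adjusted p = 0.00112). Against lenvatinib the combination tumors were lower by -0.33 ± 0.13 (edgeR adjusted p = 0.0682), which passed in 5 of 12 alternatives (adjusted p from 0.0250 to 0.0481).

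**Figure D2:**
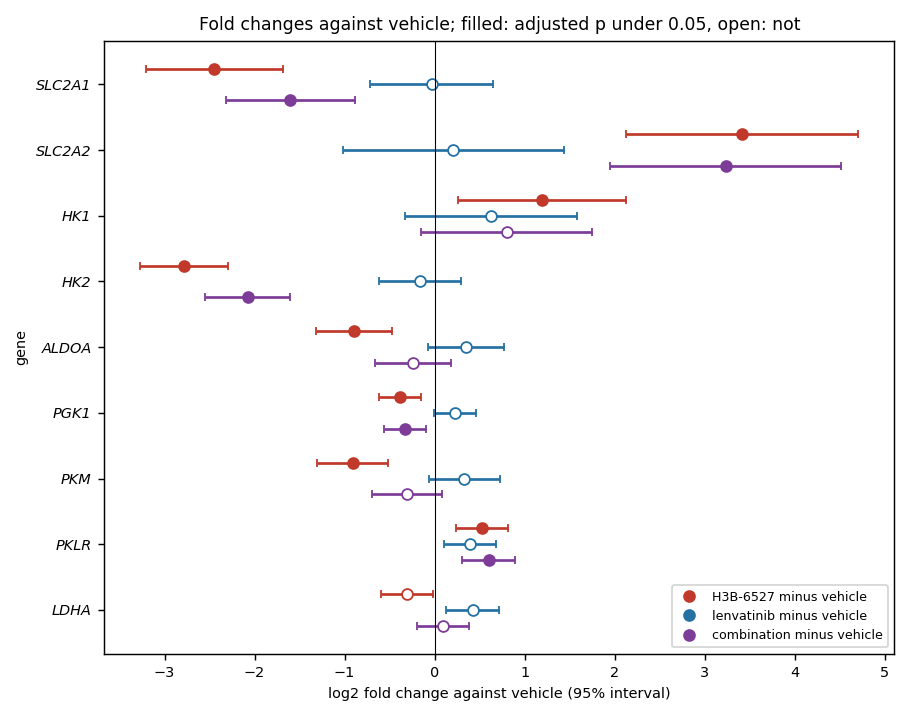
Log2 difference from vehicle (horizontal axis) of each of the 9 genes under H3B-6527, lenvatinib and the combination, with 95% intervals from the edgeR fit; filled points have an adjusted p under 0.05 over all genes tested. SLC2A1 and HK2 lie farthest below 0 and SLC2A2 farthest above it in both groups given H3B-6527, and no lenvatinib point is filled.

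Lenvatinib alone gave no call among the 9 genes. With edgeR 0% of all genes passed against vehicle. At an unadjusted p under 0.05 there were 1699 genes, of which LDHA and PKLR were the 2 among the 9. DESeq2 called 128 genes higher and 117 lower, limma voom 3 and 5, and none of the 9 was called by either. The median log2 difference of the 9 under lenvatinib was 0.33, beside 0.01 for all genes. SLC2A1, SLC2A2 and HK2 had 95% intervals of -0.71 to 0.65, -1.02 to 1.44 and -0.62 to 0.29 on the log2 scale. Differences inside these ranges are therefore not excluded with 3 tumors a group.

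Adding lenvatinib to H3B-6527 also gave 0 calls among the 9 with edgeR, where 0.0126% of all genes passed. At an unadjusted p under 0.05 there were 1492 of the 15836 genes, and 5 of the 9: SLC2A1, HK2, ALDOA, PKM and LDHA, each with a higher mean in the combination. For HK2, ALDOA, PKM and LDHA all 3 combination tumors lay above all 3 H3B-6527 tumors, at log2 differences of 0.71, 0.66, 0.60 and 0.40. The share of all genes that separate in this way was not counted, so no weight is put on this separation. DESeq2 called 81 genes higher and 17 lower in this comparison, none of them among the 9. The test of non-additivity, which asks whether the combination differs from the sum of both single drugs on the log2 scale, called 0% of all genes and none of the 9 with edgeR (DESeq2 13 higher and 5 lower genes, none of the 9). HK2 was the 1 gene of the 9 among the 854 with an unadjusted p under 0.05 there, at 0.87 ± 0.30 (95% interval 0.22 to 1.52, edgeR adjusted p = 0.798).

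The difference made by lenvatinib, averaged over tumors without and with H3B-6527, was tested as a comparison chosen after the data were seen. It had 0 calls among the 9 with edgeR, where 0.0884% of all genes passed, and 4 of the 9 had an unadjusted p under 0.05, as had 2294 of the 15836 genes. LDHA was higher by 0.41 ± 0.10 (edgeR adjusted p = 0.0968), ALDOA by 0.50 ± 0.14 (0.138) and PKM by 0.47 ± 0.13 (0.142), and PKLR by 0.23 (0.281). DESeq2 called LDHA (adjusted p = 0.00308), ALDOA (0.0138) and PKM (0.0181), and limma voom called none of the 9. LDHA also passed in edgeR with no low-count filter (0.0244) and without vehicle replicate 2 (0.0357), and ALDOA without H3B-6527 replicate 1 (0.0435).

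Adding H3B-6527 to lenvatinib raised SLC2A2 and lowered SLC2A1, HK2, ALDOA, PGK1 and PKM, which is 1 higher and 5 lower of the 9, against 19.1% higher and 20.9% lower of all genes. Library totals moved the split of all genes from 3021 higher and 3308 lower to 2293 and 4350. HK2 fell by 1.91 ± 0.22 on the log2 scale here (edgeR adjusted p = 8.19e-05). Without lenvatinib replicate 3, and likewise without combination replicate 2, 3 of the 9 were called lower. The single drugs set against each other gave 6 genes higher under lenvatinib than under H3B-6527 and 1 lower, where 20.6% and 20.5% of all genes passed. SLC2A1 was higher under lenvatinib by 2.41 on the log2 scale (edgeR adjusted p = 2.87e-04), and library totals moved the split of all genes from 3264 higher and 3248 lower to 3989 and 2563.

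Pairs of isoenzymes within a tumor show the change in balance without a scaling step, since both counts come from 1 library; lengths differ, so only shifts between groups can be read. The log2 ratio of SLC2A1 to SLC2A2 counts was 0.42 ± 0.30 in vehicle (SD, n = 3), -5.17 ± 2.12 under H3B-6527, 0.17 ± 0.49 under lenvatinib and -4.34 ± 0.66 in the combination. SLC2A2 therefore made up 42.9% of the pair's counts in vehicle, 95.3% under H3B-6527, 47.0% under lenvatinib and 92.4% to 96.7% across the combination tumors. The ratio of PKM to PKLR was 0.24 ± 0.08 in vehicle and shifted by -1.45 under H3B-6527 and by -0.91 in the combination, against -0.07 under lenvatinib. The share of PKLR in that pair was 45.8 ± 1.33% in vehicle, 69.8 ± 2.41% under H3B-6527, 47.0 ± 6.31% under lenvatinib and 61.3 ± 4.48% in the combination. HK2 to HK1 shifted by -4.03 under H3B-6527 and by -2.99 in the combination, values that depend on the few HK1 counts. For these 3 pairs every H3B-6527 and every combination tumor had a lower ratio than every vehicle tumor, and the lenvatinib tumors overlapped vehicle. The ratio of LDHA to LDHB, the heart form, overlapped vehicle in all treated groups, with 54, 17, 46 and 31 LDHB counts summed over the vehicle, H3B-6527, lenvatinib and combination tumors.

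**Figure D3:**
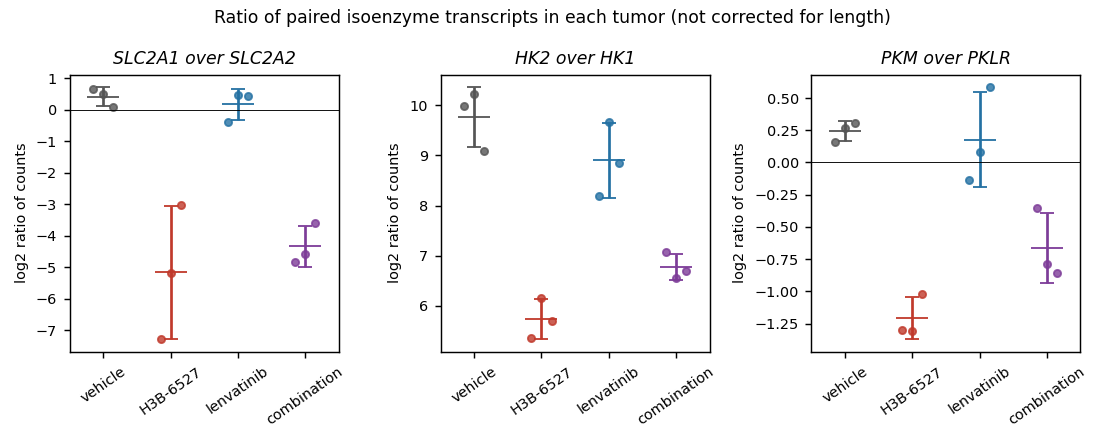
Log2 ratio of counts within a tumor (vertical axis) for isoenzyme pairs, by treatment group; points are tumors and bars the mean and SD of 3. The ratios of SLC2A1 to SLC2A2, HK2 to HK1 and PKM to PKLR are lower in all H3B-6527 and combination tumors than in all vehicle tumors.

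The 3 H3B-6527 tumors differed from one another in level, and the 9 genes were not spread alike. Replicate 1 had the lowest SLC2A1, ALDOA, PGK1, PKM and LDHA of the group and the highest SLC2A2, and replicate 3 the reverse for each of these. PKLR went against this order, at 187 CPM in replicate 1 and 259 CPM in replicate 3, and HK2 was lowest in replicate 2. Without replicate 3 the log2 differences from vehicle were -2.96 for SLC2A1, -1.14 for ALDOA and -1.13 for PKM, and each of these and of SLC2A2, HK2, PGK1 and PKLR passed with it and without it. CYP7A1 starts bile acid synthesis, and FGF19 represses it through FGFR4. Its level was 15.4, 12.7 and 4.65 CPM in replicates 1, 2 and 3, against 0.0558 to 0.127 CPM in the vehicle tumors. Replicate 3 was also the smallest library of the series, at 23.8 M counts against 40.4 and 38.9 M for replicates 1 and 2. What sets replicate 3 apart was not tested.

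Other genes of the pathway, taken from lists for each step, were split under H3B-6527. Of 54 tested genes (60 in the table) for uptake, phosphorylation, the upper and lower steps and the handling of lactate and pyruvate, 18 rose, 17 fell and 19 did not pass, with a median log2 difference of 0.06 beside 0.01 for all genes. Of all genes 25.2% rose and 24.3% fell in this comparison, the background for this count and for those of each step given next. In the combination 19 rose and 10 fell, beside 24.8% and 25.3% of all genes. Under lenvatinib alone no gene passed with edgeR. Among these 54 genes and 15 tested regulators of the pathway, 24 had an unadjusted p under 0.05. Of all 15836 genes tested, 1699 had an unadjusted p under 0.05 in that comparison.

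Among other genes of the SLC2A and SLC5A transporter families, 7 of 12 rose and 1 fell under H3B-6527. Without vehicle replicate 3, and likewise without H3B-6527 replicate 1, 4 rose. The list was drawn by family, so not every gene in it need be a transporter of glucose. SLC5A2, a sodium-coupled transporter known from kidney, rose by 1.89 ± 0.36 on the log2 scale (edgeR adjusted p = 8.15e-04). The level of SLC5A2 was low, at 19, 19 and 9 counts in vehicle and 78, 57 and 25 counts under H3B-6527. SLC2A14 rose by 1.88 ± 0.27 (edgeR adjusted p = 1.16e-04) and SLC2A3, the transporter typical of neurons, by 0.65 ± 0.16 (edgeR adjusted p = 0.00479). SLC2A3 and SLC2A14 are near-identical copies, and how reads were shared between them is uncertain. SLC2A6 fell by 0.61 ± 0.17 (edgeR adjusted p = 0.00948).

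In the upper steps 4 of 11 rose and 5 fell under H3B-6527, with 3 falling when only the 2 groups compared were fitted, and also without replicate 1 or 2 of the vehicle group or replicate 1 of the H3B-6527 group. The phosphofructokinases split by form: the liver form PFKL rose by 0.59 ± 0.11 (edgeR adjusted p = 7.26e-04), and the muscle form PFKM fell by 1.40 ± 0.10 (edgeR adjusted p = 8.18e-07). PFKM went from 137 ± 9.18 CPM in vehicle to 52.0 ± 5.30 CPM under H3B-6527 and 62.8 ± 4.09 CPM in the combination (SD, n = 3). The platelet form PFKP was not tested, with 15, 21, 8 and 22 counts summed over the vehicle, H3B-6527, lenvatinib and combination tumors. TIGAR, a phosphatase that lowers fructose bisphosphate levels, fell by 1.28 ± 0.18 (edgeR adjusted p = 9.52e-05).

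In the lower steps 2 of 9 rose and 3 fell. The enolases split, with the neuronal form ENO2 falling by 2.33 ± 0.36 (edgeR adjusted p = 2.92e-04) and the muscle form ENO3 rising by 0.78 ± 0.13 (edgeR adjusted p = 4.14e-04). ENO2 stood at 8.41 ± 2.53 CPM in vehicle, 1.74 ± 0.873 CPM under H3B-6527 and 3.69 ± 0.864 CPM in the combination (SD, n = 3). ENO1, a further enolase, stood at 765 ± 28.4 CPM in vehicle, 558 ± 178 CPM under H3B-6527 and 599 ± 63.3 CPM in the combination. Of the phosphoglycerate mutases, the muscle form PGAM2 rose by 1.36 ± 0.16 (edgeR adjusted p = 2.79e-05) and PGAM1 fell by 0.54 ± 0.15 (edgeR adjusted p = 0.00942), and PGAM1 shares reads with PGAM4 and pseudogenes to an unknown degree.

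Of the lactate and pyruvate genes 4 of 19 rose and 7 fell, with 4 falling without H3B-6527 replicate 1 and likewise without replicate 2. The 4 genes of smallest p all rose: pyruvate carboxylase PC, which feeds gluconeogenesis, by 0.96 ± 0.13 (edgeR adjusted p = 6.53e-05), the pyruvate dehydrogenase kinase PDK2 by 0.78 ± 0.11 (edgeR adjusted p = 7.80e-05), the mitochondrial pyruvate carrier MPC2 by 0.53 ± 0.09 (edgeR adjusted p = 2.89e-04) and the D-lactate dehydrogenase LDHD by 2.39 ± 0.38 (edgeR adjusted p = 3.15e-04). LDHD stood at 1.12 ± 0.135 CPM in vehicle, 5.83 ± 3.29 CPM under H3B-6527 and 6.48 ± 1.77 CPM in the combination (SD, n = 3). MPC1, of the same carrier as MPC2, was lower in every H3B-6527 tumor than in every vehicle tumor, at 10.7 ± 1.57 against 18.2 ± 0.992 CPM. From vehicle to H3B-6527, mean PDK1 went from 11.4 to 6.79 CPM and PDK4 from 3.73 to 1.13, while PDK3 went from 2.50 to 2.91. The lactate carrier SLC16A1 fell by 0.52 ± 0.19 with overlapping groups (edgeR adjusted p = 0.0373), a call lost in 6 of 12 alternatives.

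**Figure D4:**
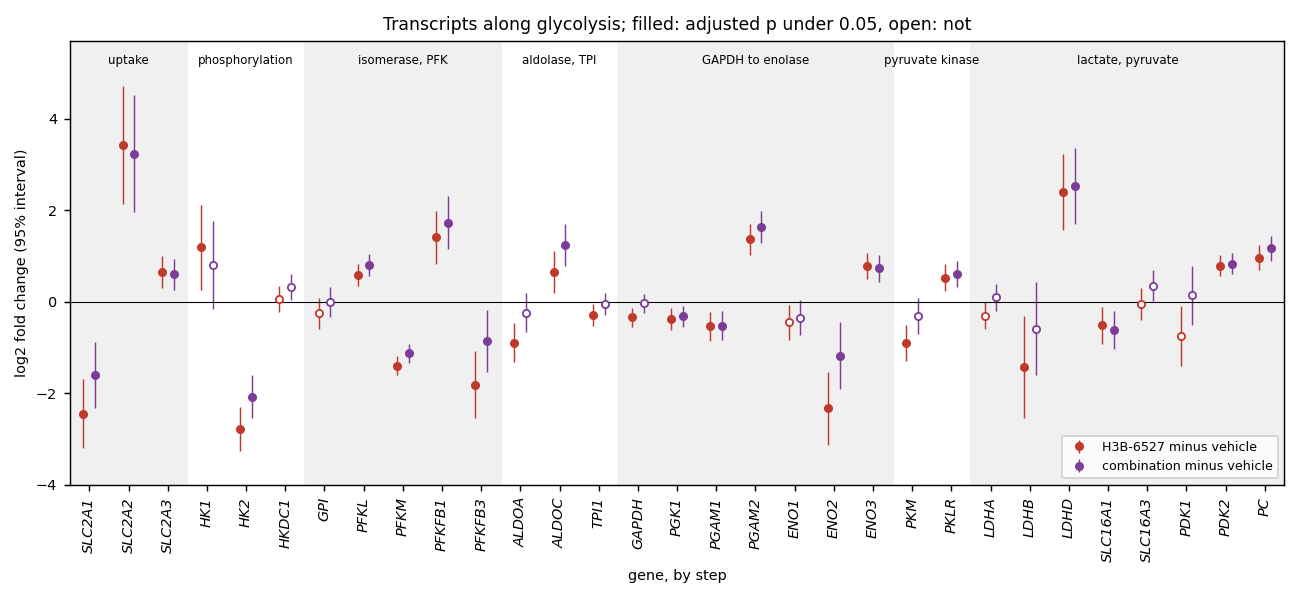
Log2 difference from vehicle under H3B-6527 and in the combination for genes in the order of the pathway, from uptake to lactate and pyruvate, with 95% intervals from the edgeR fit. Within uptake, phosphofructokinase, enolase and pyruvate kinase, SLC2A1, PFKM, ENO2 and PKM lie below 0 under H3B-6527, and SLC2A2, PFKL, ENO3 and PKLR above it. SLC2A3 and the muscle form PGAM2 also lie above 0, and ENO3 is itself a muscle form.

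Among 15 regulators of the pathway 4 rose and 6 fell under H3B-6527, beside 25.2% and 24.3% of all genes. MYC, a factor known to induce glycolytic genes and to favor the PKM2 splice form, fell from 47.2 ± 1.02 to 6.92 ± 1.56 CPM (SD, n = 3), a log2 difference of -2.78 ± 0.17 (edgeR adjusted p = 4.91e-07), and stood at 13.8 ± 1.88 CPM in the combination. HIF1A, whose protein drives the hypoxia response, fell by 0.86 ± 0.10 (edgeR adjusted p = 2.58e-05). MLXIPL, the glucose-sensing factor ChREBP that induces PKLR in liver, rose by 1.31 ± 0.13 (edgeR adjusted p = 5.96e-06). The hepatocyte factor ONECUT1 rose by 1.55 ± 0.11 (edgeR adjusted p = 1.06e-06).

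Across the 12 tumors, the genes whose log2 CPM was most like each of the 9 were found among 12046 other genes with a mean of at least 1 log2 CPM (12047 for HK1, which is itself below that level). These are descriptions over tumors that share the 4 treatments, with Pearson r. SLC2A1 was most like LSR and RNF44 (both r = 0.99), SLC2A2 most like C3 and SLC29A1 (both 0.99), and HK2 most like SETBP1 and TRIB3 (both 0.99). ALDOA and PKM were each other's nearest gene (0.98), followed by IGFBP1 for ALDOA (0.97) and ENO2 for PKM (0.97). LDHA was most like PDK1 and CA9 (both 0.97). PGK1 was most like SLC38A2 and TPM2 (both 0.95), PKLR most like ANXA13 (0.96) and NAALADL1 (0.95), and HK1 less like any gene, with RAB33B and UACA nearest (both 0.87).

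Among the 9 themselves, SLC2A1 and SLC2A2 had r = -0.90 over all 12 tumors and -0.66 once each group's mean was removed. HK2 and SLC2A1 had 0.95 over all tumors and 0.50 within groups, while ALDOA and PKM kept 0.92 and SLC2A1 and ALDOA 0.94 within groups. PKM and PKLR had -0.25 over all tumors and 0.42 within groups.

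The labels name human and mouse builds without saying how host reads were handled, so markers of host cells were read under human symbols. Conserved transcripts such as ALDOA, PGK1, PKM and LDHA may therefore hold reads of host origin in the levels given above, and their share was not measured. In the counts that follow, a marker is under 1 CPM where its mean over all 12 libraries is. All 5 endothelial markers were under 1 CPM, also in each library, with sums of 0.129 to 0.782 CPM. All 6 red cell markers were under it as means over the 12 libraries, but HBA2 averaged 1.45 CPM in vehicle and 1.88 CPM in lenvatinib tumors, against 0.385 CPM under H3B-6527 and 0.285 CPM in the combination. Red cell sums were 2.23 to 2.90 CPM in vehicle, 0.463 to 1.21 under H3B-6527, 2.79 to 3.48 under lenvatinib and 0.736 to 1.49 in the combination, lower in the groups where SLC2A1 fell and PKLR rose. Fibroblast sums, mostly PDGFRB with 4 of 6 markers under 1 CPM, were 50.2 to 55.9 CPM in vehicle, 26.9 to 36.3 under H3B-6527, 48.5 to 54.0 under lenvatinib and 31.6 to 36.3 in the combination. Of those 4, COL3A1 averaged 1.82 CPM in vehicle and 1.10 CPM in lenvatinib tumors, and 0.191 CPM under H3B-6527. Leukocyte sums, mostly CD68 with 3 of 6 under 1 CPM, were 84.5 to 116 CPM in vehicle, 134 to 204 under H3B-6527, 100.3 to 109 under lenvatinib and 150.3 to 187 in the combination. Of those 3, CSF1R averaged 1.10 CPM under H3B-6527 and 1.07 CPM in the combination. Muscle sums were 3.04 to 3.90, 5.78 to 17.6, 3.15 to 3.79 and 7.69 to 15.1 CPM in the same order, with 3 of 6 under 1 CPM. The muscle markers did not move together. From vehicle to H3B-6527, mean MYH4 went from 0.272 to 6.99 CPM, ACTN3 from 0.829 to 2.34 and ACTA1 from 0.377 to 0.561. CKM went the other way, from 1.59 to 0.729 CPM, as did MYLPF (0.175 to 0.0523) and MYH2 (0.178 to 0.151). Adipocyte sums, with 4 of 6 markers under 1 CPM, were 5.86 to 7.59, 32.3 to 73.9, 7.18 to 10.9 and 37.1 to 54.6 CPM in the same order of groups. From vehicle to H3B-6527, mean PLIN1 went from 3.45 to 46.8 CPM and CIDEC from 3.52 to 4.16. ADIPOQ stayed at 0.0170 and 0.0171 CPM, LEP and FABP4 went from 0.0088 and 0.0085 CPM to 0, and RETN was at 0 in both groups. The rise in the adipocyte sum was thus that of PLIN1. No marker was at 0 in all libraries, and the part of these markers in the differences of the 9 genes was not tested.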

How the data were processed

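RNA-seq of 12 xenograft tumors (4 groups of 3 mice) was deposited by the authors as 1 table of expected counts per human gene symbol, named for kallisto; STAR, kallisto and the builds GRCh37 and GRCm38 are named in the submitters' processing notes, whose roles and versions are not given in the sources used here. Each library was run on 4 lanes. The deposited estimated counts were rounded to whole numbers; 40.3% of the values were not whole. Genes were kept by filterByExpr with its minimum count of 10. edgeR 4.0.16 in R 4.3.3 fitted all 4 groups with TMM scaling and robust quasi-likelihood tests, with Benjamini-Hochberg adjustment over 15836 genes, and adjusted p under 0.05 was a call. Standard errors are the log2 difference divided by the square root of F. Pair ratios used counts plus 0.5, and likeness used log2 CPM with a prior count of 2. Alternatives were DESeq2 1.42.0, limma 3.58.1 (voom), library totals, DESeq2 size factors, no low-count filter, a fit of the 2 groups alone and each library left out. Replicate numbers follow accession order and pair nothing.

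The 9 genes and the lists were chosen with earlier results of these data known. Named genes were the 9, up to 4 per list with the smallest p in H3B-6527 minus vehicle, isoenzyme partners, and the 2 most similar genes to each of the 9; some of them are not reported here. The comparison averaging lenvatinib over both backgrounds was added after the data were seen. The p-values and standard errors rest on the spread between tumors of 1 cell line, with 3 tumors per group. All 4 groups share 1 estimate of that spread for each gene. The H3B-6527 tumors varied more than the rest (21.5%, against 8.19% in vehicle), so the shared estimate may understate their own spread. Code was tested on simulated data. At 23.8 to 40.9 M counts per library, genes near 10 counts, such as HK1, carry wide counting error.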

Additional observations from a re-analysis of the deposited data

How the results depend on the processing

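Each of the 9 genes kept its direction in every comparison under every alternative wherever it was called, and of 952 gene values under the alternatives 919 stayed on their side of the threshold, 17 lost a call and 16 gained one. The number of the 9 lower in the combination than in lenvatinib ran from 3 to 5 when 1 library was left out. The number higher in the lenvatinib average was 3 with DESeq2 and 1 with no low-count filter, and ran from 0 to 1 when 1 library was left out. The shift in the HK2 to HK1 ratio was -3.11 under H3B-6527 and -2.29 in the combination when CPM plus 1 replaced counts plus 0.5. An offset of 1 CPM is larger than the HK1 level in each of these tumors. That level was 0.178 to 0.446 CPM in vehicle, 0.379 to 0.771 under H3B-6527 and 0.449 to 0.508 in the combination. Of the 2 most similar genes, Spearman's rho kept 1 for PKM, 1 for LDHA and 0 for the others.

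Counts over all genes moved by over 1.5 times where few genes were called. Lenvatinib against vehicle gave 0 calls with edgeR, 128 higher and 117 lower with DESeq2, 28 and 13 with no low-count filter, and 101 and 88 when only the 2 groups compared were fitted. The combination against H3B-6527 gave 2 higher and 0 lower with edgeR, 81 and 17 with DESeq2, 13 higher with no filter, 1 when only the 2 groups were fitted, and from 0 (without combination replicate 3) to 16 (without H3B-6527 replicate 3) when 1 library was left out. The lenvatinib average gave 14 higher and 0 lower with edgeR, 309 and 158 with DESeq2, 26 higher with limma voom, and 68 and 11 with no filter. When 1 library was left out it ran from 0 higher (without vehicle replicate 1 or 3, lenvatinib replicate 2 or combination replicate 2) to 233 higher and 140 lower (without H3B-6527 replicate 1). Lenvatinib against H3B-6527 gave 2170 higher when only those 2 groups were fitted, against 3264. No paired analysis was possible because the labels give no replicate numbers. HK1, with 7 to 30 counts per tumor, was limited by depth.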

Other observations

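Splicing factors that choose between the PKM1 and PKM2 exons lay outside the rule for named genes and were named after their values were seen. PTBP1 fell by 0.48 on the log2 scale both under H3B-6527 and in the combination, HNRNPA1 fell by 0.55 and 0.48, and SRSF3 fell by 0.50 and 0.69 (edgeR calls against vehicle). HNRNPA2B1, of the same group, did not pass, at log2 differences of -0.27 ± 0.13 (SE, edgeR adjusted p = 0.0895) and -0.23 ± 0.13 (edgeR adjusted p = 0.153). The deposited sums cannot separate PKM1 from PKM2, so no splice choice was read. The 9 genes together took 0.227% to 0.293% of all counts in vehicle tumors, 0.155% to 0.192% under H3B-6527, 0.276% to 0.345% under lenvatinib and 0.201% to 0.237% in the combination. ALB alone took 3.62% to 3.80% in vehicle, 6.06% to 8.83% under H3B-6527, 3.60% to 4.54% under lenvatinib and 6.85% to 7.71% in the combination.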
